A study of Mus musculus with 6 samples.

Results

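The genes described here encode the aminoacyl-tRNA synthetases, the enzymes that load each tRNA with its amino acid before translation. Of 41325 gene rows in each deposited file, 36 were taken by gene name, 20 for cytosolic and 16 for mitochondrial enzymes, and all 36 passed the filter on low counts and were tested. Transcript abundance was measured by poly(A) RNA sequencing with paired reads of 75 bp in 6 mouse libraries labelled salivary gland. Libraries from mice given the elemental diet (n = 3) were compared with libraries from mice given saline (n = 3). In the elemental diet group, female ICR mice (purchased when 10 weeks old, then given 7 days to habituate) received 1.6 kcal of elemental diet in 0.8 mL per day by mouth, 2 times a day and 5 times a week for 3 weeks. In the saline group, mice of the same sex, strain and age were given the same volume of saline on the same schedule. Every mouse in both groups also received the antimetabolite 5-fluorouracil at 20 mg/kg by intraperitoneal injection, 2 times a week for 3 weeks, and no library came from a mouse without it. The labels give 3 mice per group but do not tie a library to a mouse, and every p-value therefore rests on the spread among these libraries, which may be technical.

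Synthetases exist in separate sets for the cytosol and for mitochondria, both encoded in the nucleus, and the mitochondrial set serves the few proteins made inside the organelle. Several cytosolic enzymes sit together in a multi-synthetase complex, and the family falls into classes I and II by the fold of the catalytic domain. In mammalian cells that lack amino acids or suffer endoplasmic reticulum stress, the transcription factor ATF4 raises many cytosolic synthetase genes through a short promoter element, the C/EBP-ATF response element (CARE).

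Libraries held 29053287 to 33073125 gene reads, and 3 reads corresponded to 0.0907 to 0.103 CPM (counts scaled to library size). All other CPM values were scaled to library size times the TMM normalization factor of edgeR. Introns took 8.39% to 8.82% of gene reads in elemental diet libraries and 13.7% to 14.4% in saline libraries. Of 14 salivary acinar markers 6 had no read in any library, and the summed level of the list was 5.63 to 6.67 CPM in elemental diet libraries and 13.4 to 15.3 CPM in saline libraries. Salivary duct markers summed to 6.74 to 15.7 CPM in elemental diet libraries and 18.2 to 22.3 CPM in saline libraries. The extraction protocol names fibroblasts or keratinocytes. Markers of these cells summed to 423 to 797 CPM in elemental diet libraries and 368 to 443 CPM in saline libraries. Of the 7 tested, 2 rose and 3 fell. Collagen genes held most of these reads. No keratinocyte gene had more than 110 reads over the elemental diet libraries or 244 over the saline libraries, and 2 had none. The tissue is given here only as labelled, since label, protocol and markers differ. Erythroid markers summed to 43416 to 44377 CPM in elemental diet libraries and 2916 to 4607 CPM in saline libraries, and all 11 rose. Proliferation genes summed to 6427 to 7382 CPM in elemental diet libraries and 314 to 330.1 CPM in saline libraries, and all 15 rose. B cell markers summed to 1933 to 2048 CPM in elemental diet libraries and 15539 to 15961 CPM in saline libraries, and all 10 fell. Neutrophil markers summed to 254 to 293 CPM in elemental diet libraries and 10.4 to 13.1 CPM in saline libraries, and all 10 rose, while 9 of 10 macrophage, 7 of 8 plasma cell and 10 of 10 T cell markers fell. These lists differed between the same groups as the synthetases below, and their part in those differences was not tested. In bulk RNA a different mixture of cells and a different amount of a transcript per cell cannot be told apart.

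Promoter sequences that hold the CARE core are shown before the values because ATF4 is a known regulator of this family. RefSeq promoter windows (GRCm38.p6, 250 bases before to 50 after the start, 300 bases in all) were matched for 27 of the 36 genes, 13 cytosolic and 14 mitochondrial. The core TGATGNAA, read on either strand, occurred in the windows of 5 of 13 cytosolic genes (38.5%) and 0 of 14 mitochondrial genes, against 4.51% of 27025 genes with a window, and the difference between the compartments was not tested. The stricter form TGATGCAA occurred in 4 of 13 cytosolic genes and 0 of 14 mitochondrial genes, against 1.03% of genes with a window. Core matches of 4 of these genes are shown on the gene's own strand, 5′ to 3′, in windows of 30 bases with the match in capitals:
Gars, 30 bases before the start: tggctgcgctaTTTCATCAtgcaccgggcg
Iars, 7 bases after the start: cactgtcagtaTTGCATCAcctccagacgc
Tars, 15 bases before the start: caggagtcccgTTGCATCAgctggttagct
Yars, 3 bases after the start: acgagctcagcTGATGCAAcccgacgggac

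The promoter windows of these genes lay at chr6:55037751-55038050 (+ strand) for Gars, chr13:49681880-49682179 (+ strand) for Iars, chr15:11399609-11399908 (- strand) for Tars and chr4:129189653-129189952 (+ strand) for Yars. The Yars match reads along the gene and the other 3 on the opposite strand, and those of Iars, Tars and Yars have the stricter form. The E-box CACGTG, bound by MYC and MAX among other factors, occurred in 4 of 13 cytosolic windows (Aars, Farsb, Iars and Tars) and 1 of 14 mitochondrial windows (Ears2), against 8.09% of genes with a window. The interferon-responsive GAS motif TTCNNNGAA occurred in 2 of 13 cytosolic windows (Aars and Kars) and 1 of 14 mitochondrial windows (Nars2), against 9.55%. The GCGCATGC motif of NRF1, a factor known for nuclear genes of mitochondrial proteins, occurred in 0 of 13 cytosolic and 3 of 14 mitochondrial windows (Rars2, Vars2 and Wars2), against 3.05%. Among 12738 tested genes with a window, the shares were 10.9% for the E-box, 8.45% for GAS and 5.19% for NRF1. They were 2.96% for the CARE core and 0.769% for its stricter form. The stricter CARE form lies within the core, and no matches of different motifs otherwise overlapped in the members' windows. Base composition was alike, with a median GC content of 56.0% over the cytosolic and 58.2% over the mitochondrial windows. These matches describe letters in the windows and show no binding.

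All 20 cytosolic synthetase genes were higher in elemental diet libraries than in saline libraries, and the mitochondrial genes moved far less and in both directions. By edgeR's quasi-likelihood test on total gene reads with Benjamini-Hochberg adjustment over 18303 genes (adjusted p under 0.05), 20 of 20 cytosolic genes rose, with a median log2 fold change (elemental diet over saline) of 1.23 and a range of 0.43 to 2.45. Of 16 mitochondrial genes 9 rose, 3 fell and 4 did not pass, with a median of 0.33 and a range of -0.25 to 1.60. The background was high, since 38% of all genes tested rose and 40.2% fell, with a median log2 fold change of -0.08. Over 2-fold increases were found for 16 of 20 cytosolic genes and 1 of 16 mitochondrial genes, against 19.1% of all genes. Tested against a change of 1.5-fold, 19 cytosolic genes (all but Vars) and 5 mitochondrial genes were higher, against 24.2% of all genes. The 5 were Iars2, Mars2, Rars2, Sars2 and Yars2. No member was lower in that test, against 4862 of the 18303 genes. In TMM-scaled CPM, the groups did not overlap for 20 cytosolic and 11 mitochondrial genes that were higher and 3 mitochondrial genes that were lower. Of all genes tested, 39% were higher and 41.9% lower without overlap. Among the 11, Cars2 and Fars2 had estimates below 0 with library totals alone. The cytosolic count stayed at 20 with every scaling tried. Scaling by library totals alone shifted the median of all genes by -0.31 and gave 6 mitochondrial genes higher and 6 lower. With that scaling, 5407 of the 18303 genes tested were higher and 9265 lower. Relative to the median of all genes, the cytosolic median was 1.32 higher and the mitochondrial median 0.41 higher with TMM scaling and with library totals alone.

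**Figure D1:**
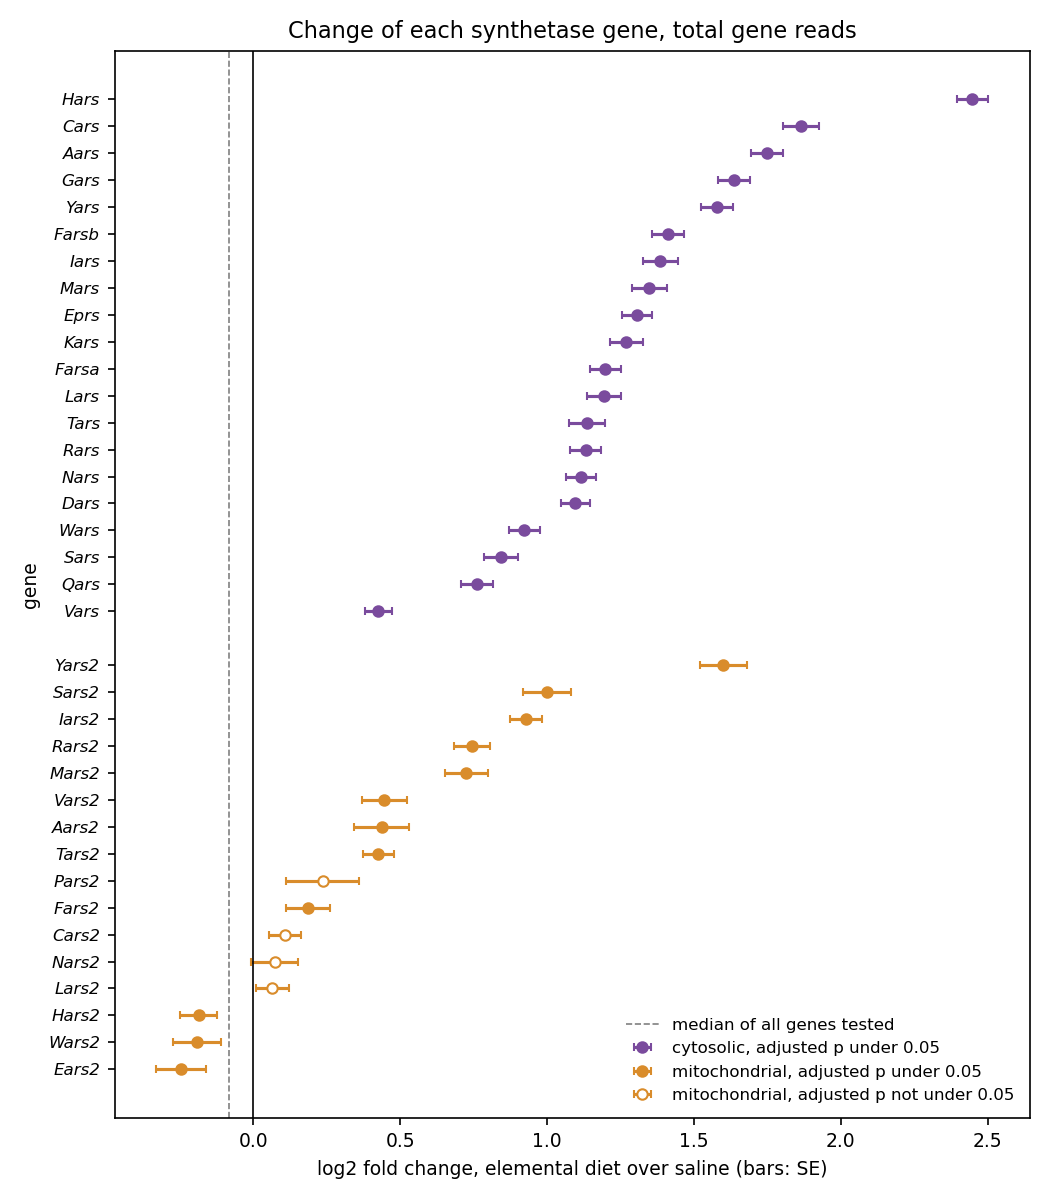
Log2 fold change of each synthetase gene on total gene reads, elemental diet over saline, with its standard error as bars (x axis); genes run down the page, cytosolic above mitochondrial, with filled points for an adjusted p under 0.05 and a dashed line at the median of all genes tested. All 20 cytosolic points lie between 0.43 and 2.45, and the mitochondrial points lie between -0.25 and 1.60.

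Levels are given below in TPM, the authors' length-scaled share of all transcripts, and fold changes on total gene reads scaled by TMM factors, so a TPM ratio and a fold change need not coincide. Exon bases are shared with another gene in 11 of the 36 genes, and without knowing whether strand was used their reads cannot be told apart. The largest shares of exon length were 22.9% in Iars2, 14.3% in Aars (with Exosc6, to which no reads were counted), 9.81% in Hars, 9.47% in Farsb, 8.72% in Fars2 and 8.52% in Vars2. Exosc6 lies on the same strand as Aars, so strand would not separate reads from their shared bases. Uniquely assigned reads were 85.1% of the gene reads of Aars. The 8 cytosolic enzymes of the multi-synthetase complex rose by similar amounts, 0.76 to 1.39 on the log2 scale with a median of 1.23. Eprs, the bifunctional glutamyl-prolyl enzyme, had 35.4, 36.1 and 37.6 TPM in the elemental diet libraries, against 18.6, 18.6 and 19.7 TPM in the saline libraries, and its log2 fold change was 1.30 (SE 0.05). Iars, for isoleucine, had 72.4, 75.5 and 80.8 TPM in the elemental diet libraries, against 34.2, 37.5 and 32.9 TPM in the saline libraries, with a log2 fold change of 1.39 (SE 0.06). In both genes the groups lay well apart. Lars, for leucine, which also serves as a leucine sensor for mTORC1, had 94.7, 97.9 and 106 TPM in the elemental diet libraries, against 46.4, 49.2 and 47.6 TPM in the saline libraries, with a log2 fold change of 1.19 (SE 0.06). Mars, for methionine, had 102, 100.5 and 107 TPM in the elemental diet libraries, against 48.5, 49.3 and 53.4 TPM in the saline libraries, with a log2 fold change of 1.35 (SE 0.06). The lowest elemental diet value of each was above the highest saline value. Dars, for aspartate, had 112, 109.9 and 114 TPM in the elemental diet libraries, against 62.0, 65.8 and 63.3 TPM in the saline libraries, with a log2 fold change of 1.10 (SE 0.05). Rars, for arginine, had 98.1, 97.6 and 106 TPM in the elemental diet libraries, against 53.8, 49.6 and 53.0 TPM in the saline libraries, with a log2 fold change of 1.13 (SE 0.05). Both moved by close to the median of the complex. Kars, for lysine, whose gene makes the cytosolic and the mitochondrial enzyme, had 111, 114 and 110.5 TPM in the elemental diet libraries, against 55.5, 57.9 and 62.8 TPM in the saline libraries, with a log2 fold change of 1.27 (SE 0.06). Qars, for glutamine, had 54.0, 59.0 and 59.0 TPM in the elemental diet libraries, against 44.1, 45.3 and 43.7 TPM in the saline libraries, the smallest change in the complex at 0.76 (SE 0.06). The groups did not overlap in TPM for any of the 8 genes.

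The noncatalytic proteins that hold the complex together rose as well, 3 of 3 with a median log2 fold change of 1.44. Aimp2, a scaffold protein, had 72.2, 74.3 and 65.7 TPM in the elemental diet libraries, against 27.3, 26.5 and 29.9 TPM in the saline libraries, with a log2 fold change of 1.44 (SE 0.07). Eef1e1, also called AIMP3, had 55.6, 55.6 and 50.4 TPM in the elemental diet libraries, against 17.2, 18.6 and 16.8 TPM in the saline libraries, with a log2 fold change of 1.83 (SE 0.06). The groups did not overlap for either gene.

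The 12 cytosolic genes outside the complex spread more widely, 0.43 to 2.45 with a median of 1.30. Hars, for histidine, moved most of all 36 genes: it had 371, 378 and 380.2 TPM in the elemental diet libraries, against 83.3, 84.1 and 89.5 TPM in the saline libraries, a 5.46-fold difference on total reads and a log2 fold change of 2.45 (SE 0.05) with an adjusted p of 5.77e-14 by edgeR. It was the most abundant synthetase transcript in elemental diet libraries and ranked 3 among the 36 in saline libraries. Cars, for cysteine, had 31.9, 32.3 and 35.1 TPM in the elemental diet libraries, against 9.67, 10.5 and 10.6 TPM in the saline libraries, with a log2 fold change of 1.87 (SE 0.06) and an adjusted p of 2.79e-12 by edgeR. Aars, for alanine, had 76.2, 79.3 and 84.6 TPM in the elemental diet libraries, against 30.5, 31.3 and 30.8 TPM in the saline libraries, with a log2 fold change of 1.75 (SE 0.06). Cars had the lowest mean level of the cytosolic transcripts in both groups, while Aars moved to rank 12 among the 36 in elemental diet libraries, against 17 in saline libraries. Gars, for glycine, which like Kars supplies both compartments, had 169.6, 180.4 and 178 TPM in the elemental diet libraries, against 68.8, 68.4 and 72.2 TPM in the saline libraries, with a log2 fold change of 1.64 (SE 0.05). Yars, for tyrosine, had 51.6, 56.5 and 54.3 TPM in the elemental diet libraries, against 22.4, 22.5 and 20.0 TPM in the saline libraries, with a log2 fold change of 1.58 (SE 0.05). These 5 genes were the cytosolic members with a log2 fold change above 1.5.

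The phenylalanine enzyme is a tetramer of alpha and beta subunits, and both subunit genes rose. Farsb, the beta subunit, had 123, 131 and 131 TPM in the elemental diet libraries, against 57.3, 53.4 and 57.0 TPM in the saline libraries, with a log2 fold change of 1.41 (SE 0.05). Farsa, the alpha subunit, had 71.8, 70.5 and 71.6 TPM in the elemental diet libraries, against 39.7, 38.9 and 35.1 TPM in the saline libraries, with a log2 fold change of 1.2 (SE 0.05). The beta subunit transcript was the more abundant in every library. Tars, for threonine, had 46.1, 49.9 and 52.4 TPM in the elemental diet libraries, against 28.9, 28.5 and 27.5 TPM in the saline libraries, with a log2 fold change of 1.14 (SE 0.06). Nars, for asparagine, had 197, 199 and 196 TPM in the elemental diet libraries, against 109, 118 and 118 TPM in the saline libraries, with a log2 fold change of 1.11 (SE 0.05). Nars ranked 2 by mean TPM among the 36 transcripts in elemental diet libraries. Wars, for tryptophan, had 75.4, 79.1 and 76.9 TPM in the elemental diet libraries, against 47.8, 51.6 and 50.7 TPM in the saline libraries, with a log2 fold change of 0.92 (SE 0.05). Sars, for serine, had 89.7, 95.0 and 96.8 TPM in the elemental diet libraries, against 62.7, 64.1 and 68.8 TPM in the saline libraries, with a log2 fold change of 0.84 (SE 0.06). Both rose by less than 2-fold without overlap. Vars, for valine, stood apart from the other cytosolic genes: it had 117, 118 and 122 TPM in the elemental diet libraries, against 115, 115 and 115 TPM in the saline libraries, and its log2 fold change was 0.43 (SE 0.05) with an adjusted p of 1.16e-06 by edgeR, the largest among the 20. By mean TPM it ranked 5 among the 36 transcripts in elemental diet libraries, and in saline libraries it shared the top of the order with Nars, whose range overlapped its own.

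**Figure D2:**
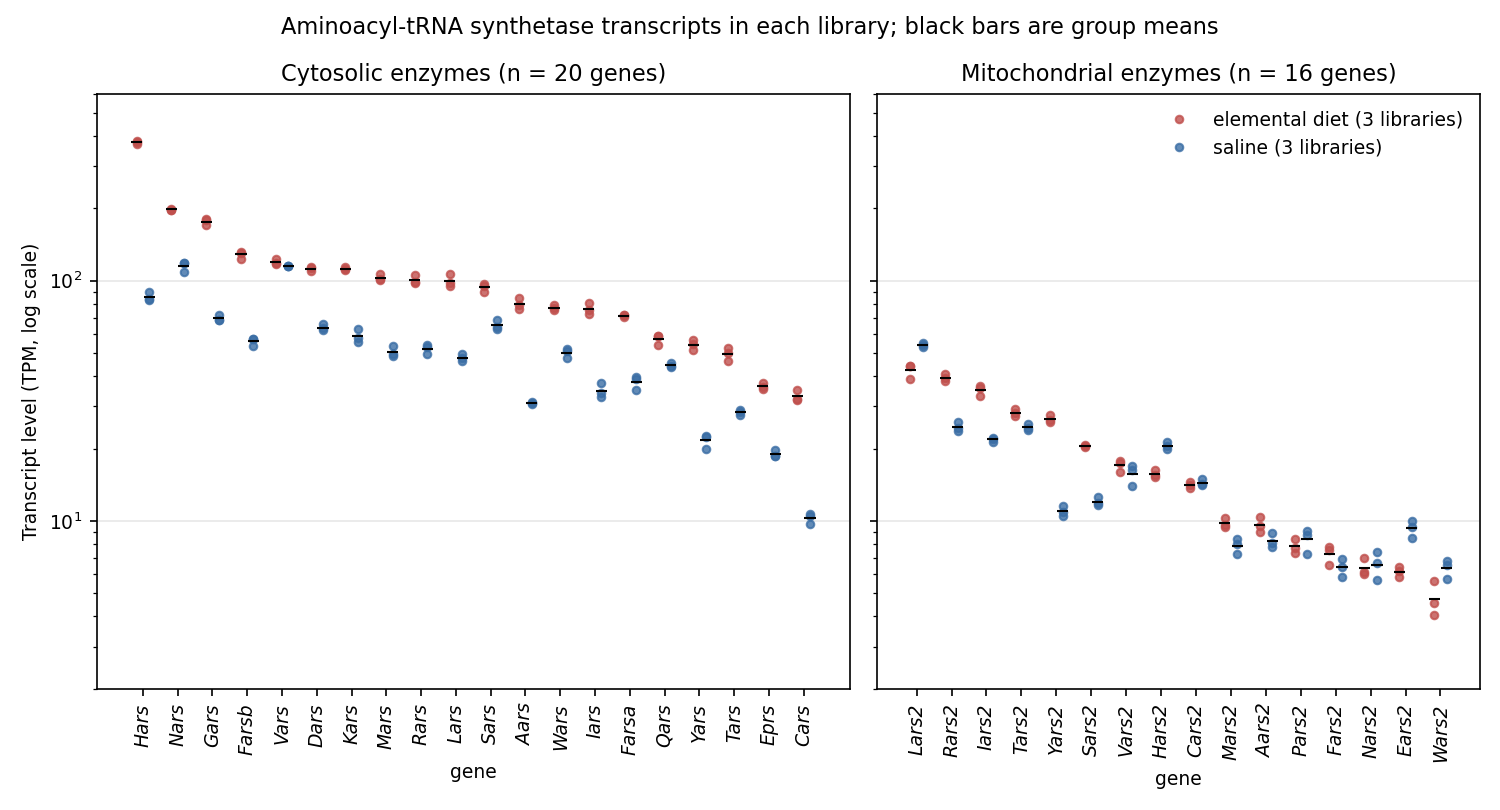
Transcript level in TPM (log axis) of each gene in each library, with 3 elemental diet points to the left of 3 saline points for every gene and black bars at group means. Hars reached 371 to 380.2 TPM in elemental diet libraries and 83.3 to 89.5 TPM in saline libraries, and Vars lay at 117 to 122 TPM in elemental diet libraries and at 115 TPM in saline libraries.

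By catalytic class the cytosolic genes had a median log2 fold change of 1.19 over 9 class I genes and 1.23 over 10 class II genes, Eprs holding a domain of each class. The mitochondrial medians were 0.45 over 9 class I genes, of which 5 rose and 2 fell, and 0.24 over 7 class II genes, of which 4 rose and 1 fell. No difference between the classes was tested.

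Among the mitochondrial genes, Yars2, for tyrosine, had the highest log2 fold change, below those of Hars, Cars, Aars and Gars among the cytosolic genes. Yars2 had 25.8, 27.6 and 26.4 TPM in the elemental diet libraries, against 10.9, 11.5 and 10.5 TPM in the saline libraries, with a log2 fold change of 1.60 (SE 0.08) and an adjusted p of 2.41e-10 by edgeR. Its cytosolic counterpart Yars had a log2 fold change of 1.58. Sars2, for serine, had 20.7, 20.5 and 20.3 TPM in the elemental diet libraries, against 12.6, 11.6 and 11.8 TPM in the saline libraries, with a log2 fold change of 1.0 (SE 0.08). Iars2, for isoleucine, had 33.2, 36.4 and 35.8 TPM in the elemental diet libraries, against 22.0, 22.2 and 21.3 TPM in the saline libraries, with a log2 fold change of 0.93 (SE 0.05). In Iars2, 2034 exon bases (22.9% of its exon length) are shared with Rab3gap2 on the opposite strand, so its reads are uncertain. Rars2, for arginine, had 38.2, 40.9 and 39.3 TPM in the elemental diet libraries, against 23.7, 25.8 and 24.3 TPM in the saline libraries, with a log2 fold change of 0.74 (SE 0.06). Mars2, for methionine, whose gene is nearly free of intron reads, had 9.45, 9.63 and 10.3 TPM in the elemental diet libraries, against 7.29, 7.99 and 8.37 TPM in the saline libraries, with a log2 fold change of 0.72 (SE 0.07). The groups overlapped in none of these 5 mitochondrial genes.

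Smaller rises passed the test for Vars2 (0.45), Aars2 (0.44), Tars2 (0.43) and Fars2 (0.19, adjusted p 0.0368 by edgeR), the Fars2 estimate being below 0 with library totals alone and with upper quartile scaling. The call of Fars2 was also lost with no filter on low counts and when elemental diet replicate 2 or any single saline library was left out. Of these, Vars2 and Fars2 overlapped between groups in TPM. Vars2 had 16, 17.5 and 17.7 TPM in the elemental diet libraries, against 16.8, 16.2 and 14.0 TPM in the saline libraries, and uniquely assigned reads were 75.4% of its gene reads, the lowest share in the family. The test was not passed by 4 genes, namely Pars2 (log2 fold change 0.24, adjusted p 0.101), Cars2 (0.11, 0.088), Nars2 (0.07, 0.418) and Lars2 (0.06, 0.293), all by edgeR. The estimates of Cars2, Lars2 and Nars2 were below 0 with library totals alone and with upper quartile scaling. In contrast, Cars2 was called higher by DESeq2, with relative log expression scaling, on exon reads (0.27, adjusted p 0.00107 by edgeR) and without elemental diet replicate 1, Nars2 on exon reads, and Lars2 without elemental diet replicate 3.

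The 3 genes that fell on total gene reads did so by little with TMM scaling, and their differences in TPM were larger. Ears2, for glutamate, had 6.18, 5.82 and 6.42 TPM in the elemental diet libraries, against 9.98, 9.43 and 8.50 TPM in the saline libraries, with a log2 fold change of -0.25 (SE 0.08) and an adjusted p of 0.0158 by edgeR. Hars2, for histidine, had 16.2, 15.3 and 15.5 TPM in the elemental diet libraries, against 20.5, 21.3 and 19.8 TPM in the saline libraries, with a log2 fold change of -0.19 (SE 0.06) and an adjusted p of 0.0146 by edgeR. Wars2, for tryptophan, had the lowest mean of the 36 transcripts in both groups, with 4.06, 4.55 and 5.62 TPM in the elemental diet libraries, against 5.75, 6.80 and 6.57 TPM in the saline libraries, a log2 fold change of -0.19 (SE 0.08) and an adjusted p of 0.0422 by edgeR. None of the 3 passed by DESeq2, and without elemental diet replicate 2 only 1 of the 16 genes (Ears2) was called lower. The call of Wars2 was lost when any single elemental diet library or saline replicate 2 was left out. In TPM, 7 mitochondrial genes were higher and 4 lower without overlap, Lars2 being the fourth, and 5 overlapped. The matching share of all genes was not computed in TPM, and in CPM it was 39% higher and 41.9% lower. Lars2, for leucine, had 44.0, 44.2 and 38.8 TPM in the elemental diet libraries, against 52.7, 55.1 and 54.2 TPM in the saline libraries, and uniquely assigned reads made up 88.7% of its gene reads.

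Summed over each compartment, the cytosolic transcripts differed more between the groups than the mitochondrial transcripts did. Cytosolic genes summed to 2100.5, 2158 and 2200.4 TPM in the elemental diet libraries, against 1038, 1060.1 and 1071 TPM in the saline libraries, a ratio of means of 2.04. Mitochondrial genes summed to 286, 296 and 290.2 TPM in the elemental diet libraries, against 250.5, 256 and 249 TPM in the saline libraries, a ratio of means of 1.16. Within a library the cytosolic sum was 7.35, 7.28 and 7.58 times the mitochondrial sum in the elemental diet libraries, against 4.14, 4.14 and 4.30 times in the saline libraries. This ratio does not depend on how libraries are scaled, and the groups did not overlap, with means of 7.40 ± 0.159 in elemental diet libraries and 4.20 ± 0.0916 in saline libraries (SD, n = 3 each). Gars and Kars, which make enzymes for both compartments, were counted as cytosolic and contributed 288 ± 6.60 TPM in elemental diet libraries and 129 ± 5.68 TPM in saline libraries.

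Cytosolic and mitochondrial enzymes for the same amino acid were compared within each library. Of 17 pair ratios, 14 were higher in all elemental diet libraries than in any saline library, 1 was lower and 2 overlapped. No such share was computed for other gene pairs, while in CPM the groups did not overlap for 39% of all genes higher and 41.9% lower. The 17 pairs hold 16 distinct mitochondrial genes, and Eprs and Fars2 each recur. The exact two-sided permutation test over 3 against 3 libraries cannot go below 0.1, which the 15 separated pairs reached, with 0.113 after Benjamini-Hochberg adjustment over the 17 pairs. The ratio of Hars to Hars2 was 22.9, 24.8 and 24.6 in the elemental diet libraries, against 4.07, 3.95 and 4.51 in the saline libraries. The difference of its geometric means, 5.77-fold, was the largest among the pairs. The genes lie head to head and share 195 exon bases on opposite strands, 9.81% of the exon length of Hars and 4.56% of that of Hars2. Cars was less abundant than Cars2 in every saline library and more abundant in every elemental diet library, the ratio being 2.26, 2.35 and 2.41 in the elemental diet libraries, against 0.648, 0.742 and 0.750 in the saline libraries. Cars2 itself had 14.1, 13.8 and 14.6 TPM in the elemental diet libraries, against 14.9, 14.1 and 14.2 TPM in the saline libraries, with overlapping groups. Lars and Lars2 changed order in the same way, with a ratio of 2.15, 2.22 and 2.74 in the elemental diet libraries, against 0.881, 0.893 and 0.879 in the saline libraries. In the other 15 pairs the cytosolic transcript was the more abundant in all 6 libraries. The ratio of Eprs to Ears2 was 5.73, 6.21 and 5.86 in the elemental diet libraries, against 1.86, 1.97 and 2.32 in the saline libraries. By geometric means it was 2.90-fold higher. The median log2 change over the 17 pairs was 0.82.

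The remaining 3 pairs differed from this pattern. Sars over Sars2 was 4.33, 4.62 and 4.77 in the elemental diet libraries, against 4.98, 5.51 and 5.81 in the saline libraries, lower in the elemental diet libraries without overlap. Vars over Vars2 was 7.33, 6.76 and 6.90 in the elemental diet libraries, against 6.85, 7.10 and 8.19 in the saline libraries, with an exact permutation p of 0.6. Yars over Yars2 was 2.0, 2.05 and 2.06 in the elemental diet libraries, against 2.06, 1.95 and 1.90 in the saline libraries. Its exact permutation p was 0.4 and its geometric mean was 1.03-fold that of saline libraries. The tyrosine pair thus combined a large rise of both genes with overlapping ratios.

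**Figure D3:**
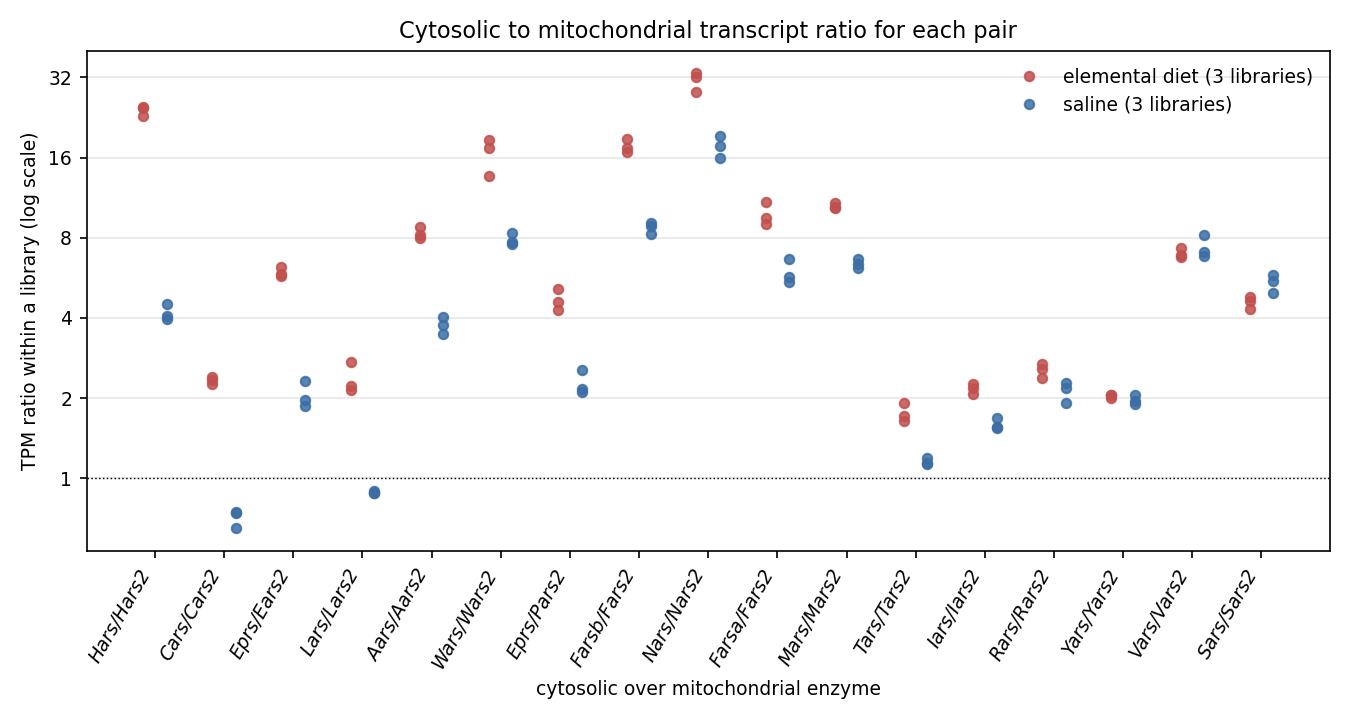
TPM ratio of the cytosolic to the mitochondrial enzyme of each pair within each library (log axis), with 3 elemental diet points to the left of 3 saline points and a dotted line where both transcripts are equal. Hars over Hars2 lies at 22.9 to 24.8 in elemental diet libraries and 3.95 to 4.51 in saline libraries, and the Cars and Lars pairs cross the dotted line.

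In order of level, 17 of 35 neighbouring genes overlapped in elemental diet libraries and 23 of 35 in saline libraries. In elemental diet libraries the order began with Hars (376 TPM on average), Nars (198 TPM), Gars (176 TPM), Farsb (128 TPM) and Vars (119 TPM), and no neighbours among these 5 overlapped. In saline libraries Vars and Nars headed the order at 115.1 and 114.9 TPM on average, and their ranges overlapped. Lars2 had the highest mean of the mitochondrial transcripts in both groups, at 42.3 ± 3.06 TPM in elemental diet libraries and 54.0 ± 1.2 TPM in saline libraries (SD, n = 3 each), and its range overlapped that of Rars2 in elemental diet libraries.

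Intron reads, which in poly(A) libraries come from unspliced or partly spliced RNA and from other transcripts within introns, moved less than exon reads. Fitted by edgeR on their own TMM scale over 14493 genes, 16 of 20 cytosolic genes were higher and 4 did not pass, with a median log2 fold change of 0.44, against 1.24 for the exon reads of the same genes. Of 15 mitochondrial genes tested, 3 were higher (Lars2, Sars2 and Yars2), 2 were lower (Aars2 and Hars2) and 10 did not pass, with a median of 0.09, against 0.45 for exon reads of all 16. Among all genes tested on intron reads, 32.9% were higher and 32.9% lower. The largest intron changes were those of Hars (1.47), Aars (1.39), Yars (1.27), Cars (1.07) and Yars2 (1.07), each with an adjusted p of at most 0.00071 by edgeR. Nars (0.15), Rars (-0.16), Tars (0.21) and Wars (-0.14) did not pass on intron reads, although their total reads were higher. These directions depend on the scale: with the library sizes of total gene reads, 6 cytosolic genes were higher and 3 lower on intron reads. On that scale 11 mitochondrial genes were lower. The matching shares of all genes were not computed there, so these counts cannot be set apart from genes at large. Leaving out single libraries ended the intron calls of Dars, Farsb, Lars, Qars, Sars, Aars2 and Sars2, and each of the 6 libraries decided at least 1 of them, while Vars2 was called lower on intron reads without saline replicate 2.

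The ratio of exon to intron reads of a gene needs no library scaling. It was higher without overlap in elemental diet libraries for 20 of 20 cytosolic genes and 11 of 15 mitochondrial genes, against 60.1% of 13128 genes, so a rise was also the common state of genes at large. The median log2 change of the ratio was 1.40 over the cytosolic genes (0.55 to 2.0), 1.11 over the mitochondrial genes (-0.11 to 1.87) and 0.63 over all genes. Introns took 5.29% ± 0.182 of cytosolic synthetase reads in elemental diet libraries and 11.7% ± 0.435 in saline libraries (SD, n = 3 each). For the mitochondrial genes they took 11.3% ± 0.681 in elemental diet libraries and 19.7% ± 0.549 in saline libraries (SD, n = 3 each). In Rars, which had the largest ratio change of the family, introns took 5.85, 5.92 and 5.56% in the elemental diet libraries, against 18.7, 20.8 and 19.5% in the saline libraries. In Vars, the cytosolic gene with the smallest, they took 5.89, 5.73 and 5.80% in the elemental diet libraries, against 8.27, 8.21 and 8.35% in the saline libraries. Of the 35 genes tested on intron reads, Lars2 alone had a ratio change below 0, with intron shares of 4.05, 3.42 and 3.84% in the elemental diet libraries, against 3.73, 3.39 and 3.34% in the saline libraries, and its groups overlapped.

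**Figure D4:**
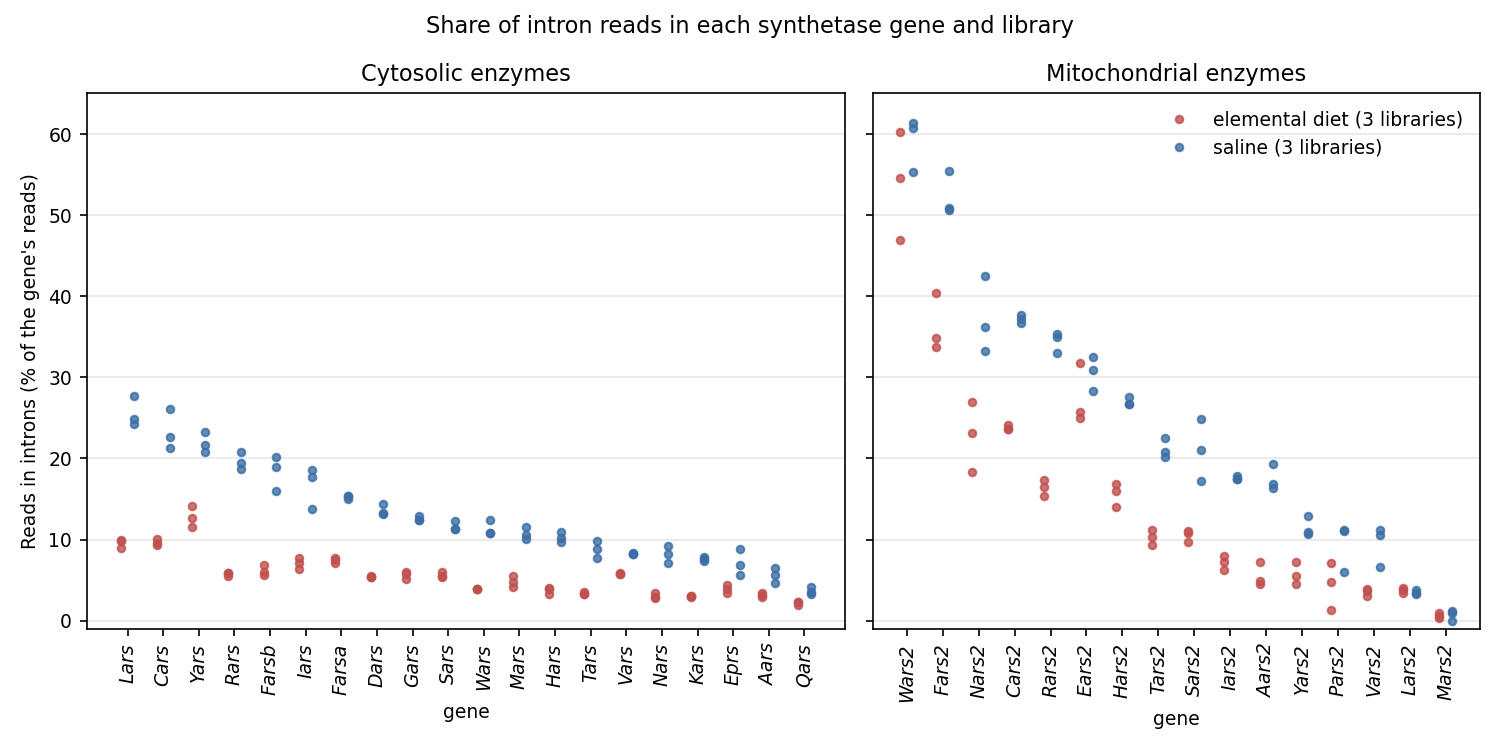
Share of each gene's reads that fell in introns (% of the gene's reads, y axis) in each library, with 3 elemental diet points to the left of 3 saline points. Every cytosolic gene had its elemental diet points below its saline points, while Lars2, Ears2, Pars2, Wars2 and Mars2 overlapped.

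Set beside the promoter windows, the 5 cytosolic genes with a CARE core had a median log2 fold change of 1.58 on total reads (1.14 to 1.75), the 8 with a window but no core 1.23 (0.76 to 1.41) and the 7 without a matched window 1.13 (0.43 to 2.45). On intron reads the medians were 0.96, 0.44 and 0.26. The ranges of the first and second set overlapped, Hars and Cars belong to the third, and no test was made.

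Genes that act with the synthetases are given by lists, to be read against the 38% of all genes that rose and the 40.2% that fell. The amidotransferase, formylation and trans-editing list also held the synthetase-like gene Tarsl2, which is not among the 36 genes. Of the 9 genes in that list 6 rose and 2 fell, with a median log2 fold change of 0.62. Tarsl2, the threonyl-tRNA synthetase-like gene also called Tars3, had 28.5, 33.3 and 36 TPM in the elemental diet libraries, against 3.43, 4.21 and 2.59 TPM in the saline libraries, with a log2 fold change of 3.30 (SE 0.13), above that of any of the 36 genes. Aarsd1, an alanyl-tRNA editing factor, had 57.1, 53.9 and 54.2 TPM in the elemental diet libraries, against 23.0, 19.8 and 21.4 TPM in the saline libraries, with a log2 fold change of 1.58 (SE 0.06). Of 5 genes of the selenocysteine-tRNA pathway 3 rose and 1 fell, with a median of 0.38. Sephs2, which makes selenophosphate, had 144, 139 and 142 TPM in the elemental diet libraries, against 48.4, 51.8 and 51.9 TPM in the saline libraries, with a log2 fold change of 1.89 (SE 0.05), and Sepsecs, which converts the tRNA-bound intermediate, had a log2 fold change of 0.84 (SE 0.07). Among 21 tRNA processing and export genes 16 rose and 2 fell, with a median of 0.73. Ssb, the La protein that binds new RNA polymerase III transcripts, averaged 411 TPM in elemental diet libraries and 241 TPM in saline libraries with a log2 fold change of 1.07 (SE 0.04). Elac1, a tRNA repair and 3′ processing nuclease, fell with 4.5, 4.49 and 5.07 TPM in the elemental diet libraries, against 21.1, 21.2 and 20.7 TPM in the saline libraries, a log2 fold change of -1.84 (SE 0.09).

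Of 28 tRNA modification genes 19 rose and 3 fell, with a median log2 fold change of 0.49. Nsun2, a tRNA cytosine methyltransferase, had 122, 122 and 123 TPM in the elemental diet libraries, against 50.8, 52.3 and 50.4 TPM in the saline libraries, with a log2 fold change of 1.59 (SE 0.05), and Elp5, an Elongator subunit, had a log2 fold change of 1.26 (SE 0.06). Of 20 genes of RNA polymerase III and its factors 17 rose and 2 fell, with a median of 0.50, among them the TFIIIC subunit gene Gtf3c5, with a log2 fold change of 1.55 (SE 0.06). Of 9 mitochondrial translation factors 7 rose and 1 fell, with a median of 0.34, close to that of the mitochondrial synthetases. The mitochondrial elongation factors Tufm and Gfm1 had log2 fold changes of 1.13 (SE 0.05) and 1.49 (SE 0.06). The medians of all these lists lay between those of the mitochondrial and the cytosolic synthetases, except for the complex scaffold at 1.44.

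In the amino acid response list, 19 of 20 genes were analysed, of which 14 rose and 3 fell, with a median log2 fold change of 0.59. Slc7a5, a transporter of large neutral amino acids, had 99.0, 113 and 114 TPM in the elemental diet libraries, against 31.2, 31.3 and 30.3 TPM in the saline libraries, with a log2 fold change of 2.22 (SE 0.07). Ddit4, an inhibitor of mTORC1 that is induced by several stresses, fell with 36.3, 33.5 and 35.3 TPM in the elemental diet libraries, against 233, 238 and 226 TPM in the saline libraries, a log2 fold change of -2.31 (SE 0.05). Asns, asparagine synthetase, named after its value was seen because it marked the upper end of the list, had 197, 208 and 218 TPM in the elemental diet libraries, against 13.1, 9.30 and 12.3 TPM in the saline libraries, with a log2 fold change of 4.56 (SE 0.12). The list thus held genes at both extremes. In the interferon gamma response list, chosen because interferon gamma is a known inducer of Wars, 12 of 13 genes were tested and all 12 fell, with a median of -1.67. Ciita, the class II transactivator, had 9.21, 9.10 and 9.47 TPM in the elemental diet libraries, against 68.5, 76.6 and 70.5 TPM in the saline libraries, with a log2 fold change of -2.57 (SE 0.06), while Wars had 0.92. T cell markers, which summed to 84.1 to 93.5 CPM in elemental diet libraries and 546 to 671 CPM in saline libraries, moved with that list. So did 10 of 10 B cell, 9 of 10 macrophage and 7 of 8 plasma cell markers, while all erythroid and neutrophil markers rose. The part of any of these cells in that list was not tested.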

How the data were processed

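For each library the authors deposited whole-number read counts per gene (total, unique, exon and intron reads), exon length and a TPM value, per the file headers. Exon and intron reads added up to the total for every gene. Of builds, GRCh37 and GRCm38 are listed in the submitters' processing notes; aligner, counting tool and use of strand: not given in the sources used here. Poly(A) selection leaves introns with few reads.

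Total gene reads were tested with edgeR 4.0.16 in R 4.3.3 (filterByExpr, TMM, robust quasi-likelihood fit on all 6 libraries, two-sided, Benjamini-Hochberg over all genes tested, threshold 0.05), and intron reads in the same way with their own TMM factors. The biological coefficient of variation was 8.26% on total reads and 10.2% on intron reads. Pair ratios of TPM were tested by an exact permutation test (scipy 1.17.1), whose smallest p with 3 against 3 libraries is 0.1. Members with an absolute log2 fold change of at least 1 or a mean of at least 100 TPM, and members of pairs described, are given in every library; of each related list the 2 genes with the smallest p could be named. A gene and a sequence that these rules would give are not reported here. The fits were tested on simulated counts in which few genes changed, as many up as down. Such counts cannot show how scaling behaves in these data, where 38% of genes tested rose and 40.2% fell. Alternatives were DESeq2 1.42.0, other scalings, exon or unique reads, no filter, a replicate block and leaving out each library. Marker and related lists, motifs and the members themselves were chosen with earlier results of these data known. Of 36 members, 33 had the coordinates of GENCODE M21, and 11 shared exon bases with another gene. Promoter sequences are RefSeq's (GRCm38.p6), matched for 27 members. The floor of 3 reads, 0.0907 to 0.103 CPM, covers counting error only.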

Additional observations from a re-analysis of the deposited data

How the results depend on the processing

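On total gene reads, 20 cytosolic genes were called higher under every alternative tried except the test against a 1.5-fold change, which gave 19. For the mitochondrial genes, that test gave 5 higher instead of 9 and 0 lower instead of 3. The number lower was 0 by DESeq2, 1 with relative log expression (RLE) scaling, 1 on exon reads, 6 with library totals alone and 6 with upper quartile scaling. Of all 18303 genes, 4862 were lower in the 1.5-fold test, 6822 by DESeq2 and 7123 with RLE scaling. With library totals alone 9265 were lower, with upper quartile scaling 9051, and on exon reads 6781 of 16681. Library totals alone shifted the median of all genes by -0.31, upper quartile scaling by -0.27 and leaving out the filter by -0.17 on the log2 scale. Under library totals and upper quartile scaling, the log2 fold changes turned to -0.20 and -0.16 for Cars2, -0.12 and -0.086 for Fars2, -0.24 and -0.21 for Lars2, and -0.24 and -0.20 for Nars2. The cytosolic median was then 0.93 and 0.96, and the mitochondrial median 0.02 and 0.06.

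With the library sizes of total gene reads, intron reads gave 6 cytosolic genes higher instead of 16 and 3 lower instead of 0, and 1 mitochondrial gene higher instead of 3 and 11 lower instead of 2. Intron log2 fold changes were then -0.23 for Dars, -0.063 for Kars, -0.21 for Lars, -0.32 for Nars, -0.0086 for Qars, -0.20 for Sars, -0.087 for Vars and -0.17 for Farsb. They were -0.39 for Ears2, -0.34 for Fars2, -0.38 for Iars2, -0.33 for Rars2, -0.013 for Sars2 and -0.33 for Wars2, with medians of -0.036 (cytosolic) and -0.39 (mitochondrial). With library totals alone 1 cytosolic gene was lower on intron reads and the mitochondrial median was -0.0032. For neither of these scales were the shares of all genes computed on intron reads.

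Leaving out 1 library at a time gave 29 to 32 called members on total reads, 20 cytosolic higher, 8 to 10 mitochondrial higher and 1 to 3 lower, the 1 without elemental diet replicate 2. On intron reads it gave 16 to 19 called members, 11 to 15 cytosolic higher, 2 to 3 mitochondrial higher and 1 to 3 lower, and a mitochondrial median of -0.0012 (without elemental diet replicate 2) to 0.10. The change of the cytosolic to mitochondrial ratio was 1.74 to 1.79. A fit with a replicate block gave 32 called members and changed no member's call. Same-numbered libraries had correlations of deviations of 0.117, -0.00799 and 0.0578 across 18303 genes, so the numbers were not taken as pairs. The cause of each change of count was not tested. With 3 libraries per group, the pair ratios cannot reach a p of 0.05.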
